A study of Zea mays with 18 samples.

Results

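The transcripts described here encode 10 enzymes of flavonoid and anthocyanin synthesis in maize roots. They were taken by identifier from the 39372 transcripts of the array, and all 10 were found, each as 1 probe (9 of them under the identifier with the ending _T01). AC191551.3_FGT003 (a chalcone synthase, CHS) and GRMZM5G882986 (a chalcone-flavanone isomerase, CHI) carry the names used for them in the publication. Both were picked there from the Lo5 roots analysed here, 4 days against the start, so their direction in that comparison is not independent evidence. The other 8 are classical maize loci: the chalcone synthases C2 (GRMZM2G422750) and WHP1 (GRMZM2G151227), the chalcone isomerase CHI1 (GRMZM2G155329), the flavanone hydroxylase F3H (GRMZM2G062396), the dihydroflavonol reductase A1 (GRMZM2G026930), the anthocyanidin synthase A2 (GRMZM2G345717), the flavonoid glucosyltransferase BZ1 (GRMZM2G165390) and the glutathione transferase BZ2 (GRMZM2G016241).

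Chalcone synthase joins a coumaric acid thioester to malonyl units, which is the entry to all flavonoids, and chalcone isomerase closes the ring to a flavanone. F3H, A1, A2 and BZ1 then lead through the dihydroflavonol and the colourless leucoanthocyanidin to the red glucoside, and BZ2 is needed to bring it into the vacuole. In maize the later steps are known to be switched on by a MYB protein (C1 or PL1) together with a bHLH protein of the R family and the WD40 protein PAC1, and anthocyanins are known to build up in many plants short of N.

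Seedlings of the inbred lines Lo5 (high N use efficiency) and T250 (low N use efficiency) were germinated in the dark, held on a solution of calcium sulphate only and moved to a hydroponic solution lacking N. Roots were taken at 0 d, the start of growth in that solution, and after 1 d and 4 d, and days without N are counted from that start. The calcium sulphate solution before it held no N either, and the later solution added other minerals such as P, K, Mg and Fe. The 6 groups therefore were Lo5 0 d, Lo5 1 d, Lo5 4 d, T250 0 d, T250 1 d and T250 4 d, each with 3 arrays of pooled roots from separate runs of the growth experiment. Roots of seedlings given N for the same time were not analysed here. N shortage, growth and the supply of other minerals therefore cannot be told apart in a change with time. Each line is a single inbred, and a difference between the lines is one of those 2 genotypes.

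Levels are given as the log2 of the processed Cy3 intensity minus the log2 of the 75th percentile of the array, so 0 is the 75th percentile and a step of 1 is a 2-fold difference. All spots are listed, and marked spots were left out of the fits unless stated. Whole roots were sampled, and fewer cells of a type and less RNA per cell cannot be told apart. On each array between 28868 and 32446 probes were well above background and from 4.12% to 12.3% of the spots were marked as uneven or as outliers. Of the 180 spots of the 10 enzymes 15 were marked and 5 were not well above background. Of 4 root genes, RTH3, NAS1, RTCS1 and NAS2 were well above background on 18, 17, 14 and 4 arrays. Of 8 photosynthesis genes 2 were so on each array and 1 on none, and of 5 zein and oleosin genes 2 and 1. The array labelled Lo5 1 d replicate 3 stood apart: on a scale over 2366 transcripts far apart between Lo5 and T250 at 0 d, where T250 0 d averages 0 and Lo5 0 d averages 1, it lay at 0.095, the other 8 Lo5 arrays between 0.933 and 1.032, and the T250 arrays between −0.028 and 0.143. Its values go against its label. For the 10 enzymes the calls between the lines are given with and without it. The correlations, the counts of overlap and the differences of the lines at 1 d include it, as do the SDs unless stated.

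**Figure D1:**
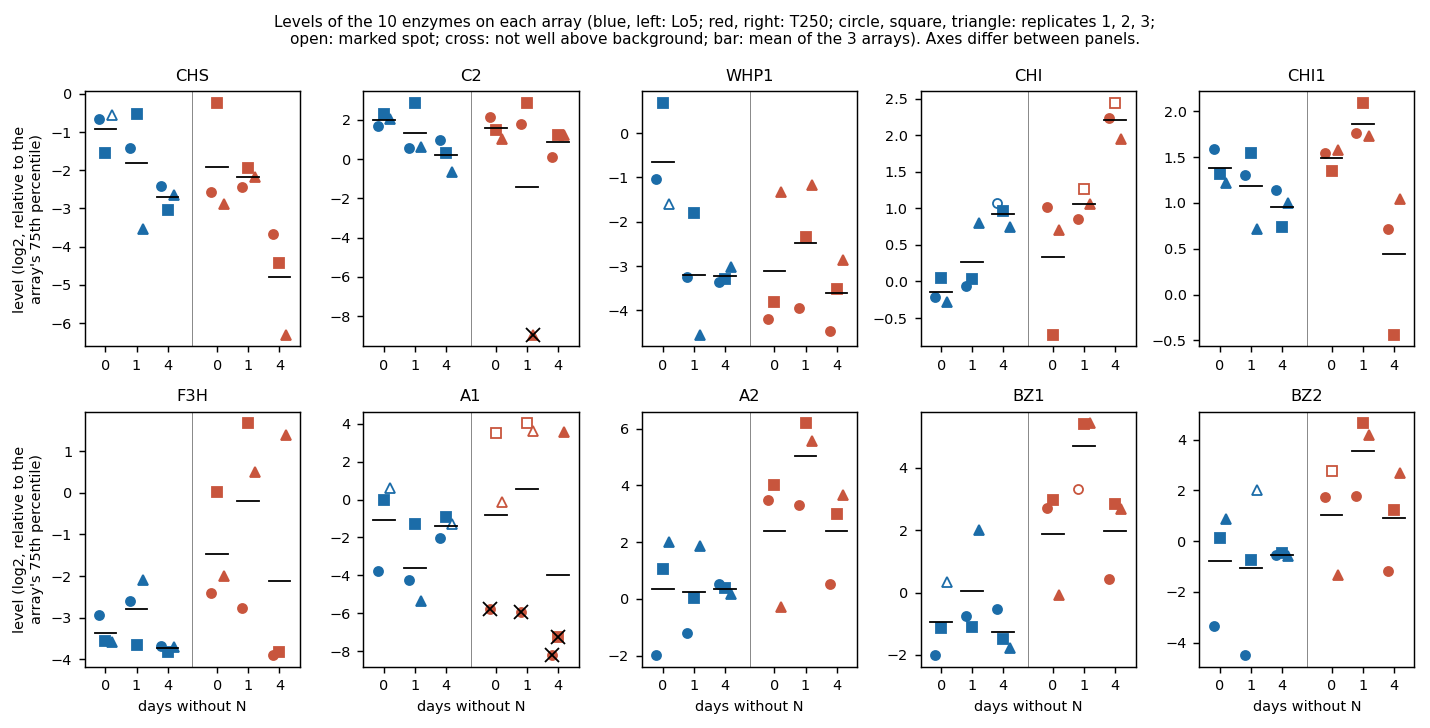
Level of each enzyme on each of the 18 arrays (vertical axis, log2, with the array's 75th percentile at 0) by day without N (horizontal axis), with Lo5 in blue on the left and T250 in red on the right of each panel. Circles, squares and triangles are replicates 1, 2 and 3, open symbols are marked spots, crosses are spots not well above background and bars are means of the 3 arrays. The mean of CHS is lowest and that of CHI highest at 4 d in both lines (in Lo5 CHI lies between 0.74 and 1.07 at 4 d and between −0.28 and 0.05 at 0 d), while A2, BZ1 and BZ2 spread widely between replicates.

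With time without N the transcripts that lay apart from 0 d in both lines were those of the chalcone steps. At 4 d CHS was lower and CHI higher than at 0 d in both lines with no overlap of the groups, CHI1 was lower in both, and WHP1 was lower in Lo5. None of these passed the adjusted threshold, an adjusted p not above 0.05 and at least a 2-fold difference (log2 ratio of 1), in limma's fit of the 6 groups with Benjamini-Hochberg adjustment over all transcripts tested.

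CHS, the entry enzyme named by the study, had levels in Lo5 of −0.65, −1.54 and −0.55 at 0 d, of −1.41, −0.53 and −3.53 at 1 d and of −2.41, −3.03 and −2.65 at 4 d. In T250 its levels were −2.58, −0.24 and −2.89 at 0 d, −2.45, −1.94 and −2.17 at 1 d and −3.66, −4.44 and −6.31 at 4 d. The 4 d arrays lay below all 0 d arrays of their line, and at 1 d the groups overlapped. The log2 ratio of 4 d to 0 d was −1.60 ± 0.93 (SE, n = 3 and 2 unmarked spots, limma's adjusted p = 0.745) in Lo5 and −2.90 ± 0.83 (SE, n = 3 and 3, unadjusted p = 0.00392, adjusted p = 0.145) in T250. Averaged over both lines it was −2.25 ± 0.62 (limma's adjusted p = 0.0921), and without the Lo5 1 d array that stood apart the same value had an adjusted p of 0.047. With the normexp background correction the T250 ratio was −0.46 ± 0.73 and the average −0.82 ± 0.55 (limma's adjusted p = 0.714 and 0.908). Between arrays of 1 slide the difference was −0.87 and −2.48 in Lo5 and −0.78 in T250, all of the same sign.

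CHI, the isomerase named by the study, lay the other way. Its levels in Lo5 were −0.21, 0.05 and −0.28 at 0 d, −0.06, 0.04 and 0.80 at 1 d and 1.07, 0.96 and 0.74 at 4 d. In T250 they were 1.02, −0.73 and 0.71 at 0 d, 0.85, 1.26 and 1.06 at 1 d and 2.24, 2.44 and 1.95 at 4 d. Each 4 d array exceeded each 0 d array of its line, and the highest Lo5 level at 1 d was that of the array that stood apart. The log2 ratio of 4 d to 0 d was 1.00 ± 0.45 (SE, n = 2 and 3, limma's adjusted p = 0.659) in Lo5 and 1.76 ± 0.45 (SE, n = 2 and 3, unadjusted p = 0.00242, adjusted p = 0.123) in T250. With the marked spots kept the T250 ratio was 1.88 ± 0.37 and passed the threshold (limma's adjusted p = 0.0488). The average over both lines was 1.38 ± 0.32 (limma's adjusted p = 0.0605). It was called with the marked spots kept (adjusted p = 0.0164), without the Lo5 1 d array that stood apart (adjusted p = 0.0443) and without T250 0 d replicate 1 (adjusted p = 0.0356). Between arrays of 1 slide CHI was higher at 4 d by 1.02 and 1.25 in Lo5 and by 1.53 in T250. Over the 18 arrays the levels of CHS and CHI had a correlation of −0.86, and of −0.60 once each group's mean was removed, which describes arrays that share lines, slides and growth runs.

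CHI1, the classical chalcone isomerase, did not follow CHI. It had levels in Lo5 of 1.59, 1.32 and 1.22 at 0 d, 1.30, 1.55 and 0.71 at 1 d and 1.14, 0.74 and 1.00 at 4 d. In T250 it had levels of 1.55, 1.35 and 1.58 at 0 d, 1.76, 2.09 and 1.73 at 1 d and 0.72, −0.44 and 1.04 at 4 d. The 4 d arrays lay below the 0 d arrays in both lines, and in T250 the 1 d arrays lay above them. The log2 ratio of 4 d to 0 d was −0.42 ± 0.33 (SE, limma's adjusted p = 0.845) in Lo5 and −1.06 ± 0.33 (SE, unadjusted p = 0.00597, adjusted p = 0.173) in T250, each with n = 3 and 3.

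WHP1, a duplicate of the chalcone synthase C2, was highest in Lo5 roots at 0 d, with levels of −1.03, 0.68 and −1.60. It stood there at −3.25, −1.80 and −4.55 at 1 d and at −3.36, −3.28 and −3.03 at 4 d. In T250 it stood at −4.19, −3.80 and −1.33 at 0 d, at −3.95, −2.35 and −1.16 at 1 d and at −4.47, −3.52 and −2.86 at 4 d. In Lo5 both later groups lay below 0 d without overlap, and in T250 the 3 days overlapped. The Lo5 log2 ratio to 0 d was −3.03 ± 1.00 at 1 d (SE, n = 3 and 2, unadjusted p = 0.00923, limma's adjusted p = 0.954) and −3.05 ± 1.00 at 4 d (SE, n = 3 and 2, unadjusted p = 0.00882, adjusted p = 0.459). With the marked spot at 0 d kept, the p without adjustment was 0.0125 at 1 d and 0.0119 at 4 d, and without the array that stood apart it was 0.0393 at 1 d. The difference of the lines in these changes was −3.64 ± 1.33 at 1 d and −2.54 ± 1.33 at 4 d (SE, limma's adjusted p = 0.971 and 1.00). C2 itself ranged in Lo5 from 1.68 to 2.31 at 0 d, from 0.57 to 2.86 at 1 d and from −0.64 to 0.98 at 4 d, so that its 4 d arrays lay below its 0 d arrays (log2 ratio −1.80 ± 2.07, SE, limma's adjusted p = 0.935). In T250 it ranged from 1.05 to 2.15 at 0 d and from 0.09 to 1.24 at 4 d, and at 1 d it gave 1.78, 2.84 and, on replicate 3, a spot not well above background at −8.96, which sets its wide SE. Whether the chalcone synthase probes detect each other's transcripts was not tested.

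None of the later enzymes lay apart from 0 d in both lines. F3H lay in Lo5 between −3.60 and −2.95 at 0 d and between −3.83 and −3.68 at 4 d, just without overlap (log2 ratio −0.37 ± 1.27, SE, limma's adjusted p = 1.00). A2, BZ1 and BZ2 had 4 d to 0 d log2 ratios between −0.02 and 0.73 over both lines, with SE of 0.96 to 1.53. At 1 d they were higher than at 0 d in T250, by 2.62 ± 1.28 for A2, 3.54 ± 1.07 for BZ1 and 3.35 ± 1.53 for BZ2 (SE, limma's adjusted p = 0.803, 0.637 and 0.796). A marked spot was left out of BZ1 at 1 d and of BZ2 at 0 d (n = 2 there). With marked spots kept the ratios were 2.84 ± 1.02 for BZ1 and 2.50 ± 1.58 for BZ2 (SE, limma's unadjusted p = 0.0144 and 0.136). These ratios differed widely between slides: between arrays of 1 slide the difference for BZ1 was 0.59, 2.42 and 5.50, and that for A2 was −0.18, 2.19 and 5.84. Without the slide scanned apart from the others, which holds replicate 1 of both groups, the BZ2 ratio was 5.77. That value rests on 1 unmarked spot at 0 d, and the setting was chosen after seeing the data.

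**Figure D2:**
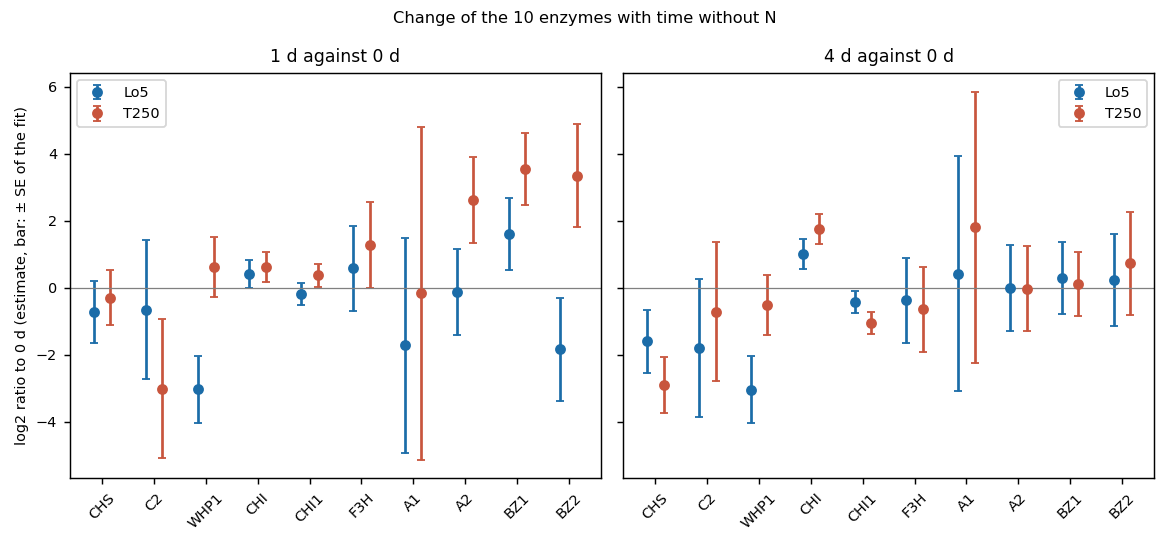
Log2 ratio of 1 d (left) and 4 d (right) to 0 d for each enzyme (vertical axis, log2) in Lo5 (blue) and T250 (red), with points for the estimates of limma's fit and bars for ± 1 SE. At 4 d CHS lies below 0 and CHI above 0 in both lines, and the bars of A1, C2 and BZ2 are the widest. For A1 the T250 points at 0 d and 1 d rest on 1 spot each that was not well above background.

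Over the 10 enzymes limma called 0 after adjustment in any of the 4 time comparisons. The background, the share of all transcripts tested that were called, was 0.00976% for Lo5 1 d, 0.0457% for Lo5 4 d, 0.00997% for T250 1 d and 0.171% for T250 4 d. Without the Lo5 1 d array that stood apart these shares were 0%, 0.144%, 0.0399% and 0.727%, and again 0 enzymes were called. A replicate block gave each replicate number 1 effect shared by both lines and all days. With it 0 enzymes were called at 1 d, and over all transcripts 1 instead of 3 in Lo5 and 2 instead of 3 in T250. Without adjustment limma gave 1, 2, 2 and 3 enzymes a p not above 0.05 in these comparisons, and the methods' t-test gave 0, 4, 0 and 0. A looser threshold, p not above 0.01 without adjustment and at least a 2-fold difference, was passed in limma's fit by WHP1 in both Lo5 comparisons (background 0.618% and 1.68%), by BZ1 in T250 1 d (background 1.38%) and by CHS, CHI and CHI1 in T250 4 d (background 3.89%). With the replicate block BZ1 in T250 1 d no longer passed it (3.41 ± 1.18, unadjusted p = 0.0155), nor with marked spots kept (2.84 ± 1.02, unadjusted p = 0.0144). The methods' t-test, run here only with marked spots left out, put 0 enzymes past that threshold in each of the 4 time comparisons. In that test CHI in Lo5 4 d met the limit on p and missed the threshold by a ratio just under the size needed. The publication's methods do not mention leaving out spots. With marked spots kept, limma's log2 ratios in Lo5 4 d were −1.78 for CHS and 1.07 for CHI. The arrays of 4 d and 0 d did not overlap for 6 of the 10 in Lo5 (23.5% of all transcripts) and for 3 of the 10 in T250 (19.6%), and those of 1 d and 0 d for 1 in Lo5 (5.8%) and 2 in T250 (10.9%). Without overlap in both lines, CHS and CHI1 were lower at 4 d, as were 3.3% of all transcripts, and CHI was higher, as were 2.52%. CHS and CHI, both among the 6 in Lo5, were picked in the publication from Lo5 at 4 d against 0 d. Their part in these counts is therefore not independent evidence. The median log2 ratio of the 10 at 4 d was −0.19 in Lo5, where that of all transcripts tested was −0.10, and −0.26 in T250, where it was −0.05. The summed level of the 8 photosynthesis genes also moved with time in Lo5, from between 0.492 and 0.713 times the 75th percentile at 0 d to between 0.195 and 0.291 at 4 d, and its part in these results was not tested.

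Averaged over both lines, 0 of the 10 were called at 4 d (background 1.03%), where 4 had an unadjusted p not above 0.05. No change differed between the lines after adjustment either. For the difference of the lines in the change from 0 d, limma called 0 of the 10 at 1 d (background 0.0168%) and 0 at 4 d, where 0% of all transcripts were called. Without adjustment WHP1 and BZ2 had a p not above 0.05 at 1 d (−3.64 ± 1.33 and −5.19 ± 2.17, SE), and 0 enzymes had one at 4 d. The SE of these differences ran from 0.46 for CHI1 to 5.91 for A1, so that differences of several fold in A1, C2 or BZ2 were not detectable with 3 arrays in each group.

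Between the lines it was the late enzymes A2, BZ1 and BZ2 that were called, all lower in Lo5 roots than in T250 roots. All 3 were called at 1 d and BZ1 also at 4 d, and each of these calls was lost when certain single arrays were left out.

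BZ1, which adds the glucose that makes the pigment stable, had levels in Lo5 of −2.0, −1.13 and 0.34 at 0 d, of −0.76, −1.12 and 2.02 at 1 d and of −0.53, −1.48 and −1.77 at 4 d. In T250 it had levels of 2.72, 2.97 and −0.07 at 0 d, of 3.31, 5.39 and 5.43 at 1 d and of 0.43, 2.84 and 2.67 at 4 d. The lines did not overlap at 1 d and 4 d, and at 0 d T250 replicate 3 fell among the Lo5 arrays. The log2 ratio of Lo5 to T250 was −3.44 ± 1.07 at 0 d (SE, n = 2 and 3, limma's adjusted p = 0.0502), −5.36 ± 1.07 at 1 d (SE, n = 3 and 2, adjusted p = 0.0172) and −3.24 ± 0.96 at 4 d (SE, n = 3 and 3, adjusted p = 0.0298). Without Lo5 1 d replicate 3, whose level of 2.02 was the highest of the Lo5 arrays, the 3 ratios were −3.44, −6.35 and −3.24, and all passed (adjusted p = 0.0177, 0.000701 and 0.0107). The 0 d ratio also passed with quantile normalization, the floor for dim signals or the slide as a random or fixed block (adjusted p = 0.0457, 0.048, 0.0307 and 0.0395). It did not pass with marked spots kept (−2.80, limma's adjusted p = 0.0775) or with the replicate block (−3.40, adjusted p = 0.0828). Of 33 alternatives 9 called it and 24 did not. The marked Lo5 spot of 0.34 at 0 d was left out of the main ratio. The 1 d call was lost without Lo5 1 d replicate 1 or 2 or T250 1 d replicate 2 or 3 (adjusted p = 0.0664, 0.0715, 0.0885 and 0.0937). The 4 d call was lost without Lo5 4 d replicate 2 or 3 or T250 4 d replicate 2 or 3 (adjusted p = 0.0836, 0.0943, 0.11 and 0.077). Between arrays of 1 slide BZ1 differed by −4.72 at 0 d, by −4.07 at 1 d and by −4.15 and −3.37 at 4 d.

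A2, which makes the coloured anthocyanidin, had levels in Lo5 of −1.97, 1.06 and 2.00 at 0 d, of −1.18, 0.02 and 1.88 at 1 d and of 0.52, 0.38 and 0.18 at 4 d. In T250 it had levels of 3.50, 4.00 and −0.28 at 0 d, of 3.32, 6.19 and 5.56 at 1 d and of 0.51, 3.0 and 3.66 at 4 d. The lines were apart only at 1 d, and the Lo5 level varied least at 4 d. The log2 ratio of Lo5 to T250 was −2.05 ± 1.28 at 0 d (SE, limma's adjusted p = 0.343), −4.78 ± 1.28 at 1 d (SE, adjusted p = 0.0493) and −2.03 ± 1.28 at 4 d (SE, adjusted p = 0.292), each with n = 3 and 3. At 1 d it was −5.60 ± 1.38 without the array that stood apart (limma's adjusted p = 0.0113). Of the 18 fits that left out 1 array, 4 kept the call, those without Lo5 0 d replicate 1, Lo5 1 d replicate 3, T250 0 d replicate 3 or T250 1 d replicate 1, and adjusted p ran from 0.0113 to 0.184 over all 18, highest without Lo5 1 d replicate 1. Between arrays of 1 slide A2 differed by −5.48 at 0 d, −4.50 at 1 d and −3.28 and −2.48 at 4 d.

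BZ2, which the vacuolar step needs, had levels in Lo5 of −3.35, 0.13 and 0.85 at 0 d, of −4.49, −0.76 and 2.02 at 1 d and of −0.56, −0.49 and −0.60 at 4 d. In T250 it had levels of 1.73, 2.76 and −1.35 at 0 d, of 1.78, 4.65 and 4.19 at 1 d and of −1.17, 1.24 and 2.70 at 4 d. The lines overlapped on each day, at 1 d through the marked spot of 2.02 on the Lo5 array that stood apart. With that spot left out the log2 ratio at 1 d was −6.17 ± 1.53 (SE, n = 2 and 3, limma's adjusted p = 0.0439), and with all marked spots kept it was −4.62 ± 1.58 and was not called (adjusted p = 0.103). The call was kept in 8 of the 18 fits that left out 1 array, and was lost without Lo5 0 d replicate 2 or 3, T250 4 d replicate 2, any Lo5 4 d array, replicate 1 or 2 of Lo5 1 d or replicate 2 or 3 of T250 1 d. Adjusted p ran from 0.0127 to 0.269 over all 18, highest without Lo5 1 d replicate 1. At 0 d and 4 d the ratios were −0.98 ± 1.53 and −1.47 ± 1.37 (SE, limma's adjusted p = 0.765 and 0.502).

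**Figure D3:**
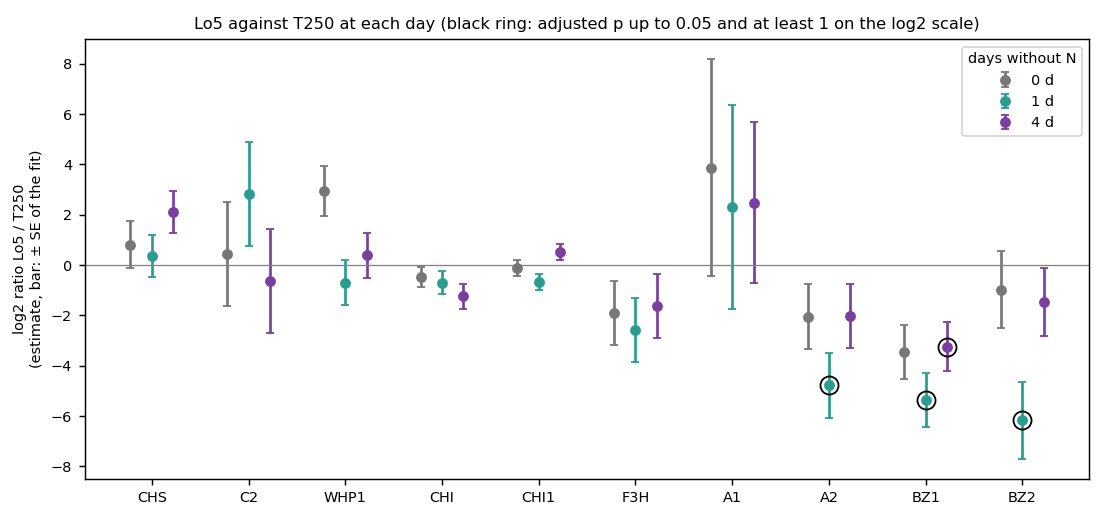
Log2 ratio of Lo5 to T250 for each enzyme (vertical axis, log2) at 0 d (grey), 1 d (green) and 4 d (violet), with points for the estimates of limma's fit, bars for ± 1 SE and black rings for calls after adjustment. The ringed points are A2, BZ1 and BZ2 at 1 d and BZ1 at 4 d, all below 0. The A1 points at 0 d and 1 d rest on 1 T250 spot each that was not well above background.

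Of the 10 enzymes 0 were called between the lines at 0 d (background 13.8%), with 2 enzymes at an unadjusted p not above 0.05 by limma and 0 by the methods' t-test. At 1 d 3 were called, all lower in Lo5 (background 4.24%, and 2.45% in that direction). At 4 d 1 was called, lower in Lo5 (background 20%, and 10.8% in that direction). Without the array that stood apart the enzymes called were 2 at 0 d (background 17.8%), 3 at 1 d (16.8%, and 9.32% lower in Lo5) and 2 at 4 d (22.7%). The methods' t-test with adjustment called 0 at 1 d and at 4 d, with 3 and 2 enzymes at an unadjusted p not above 0.05. The arrays of the lines did not overlap for 1 enzyme at 0 d (F3H, background 33.2%), 4 at 1 d (BZ1, A2, CHI and CHI1, 16.7%) and 3 at 4 d (CHS, CHI and BZ1, 46.6%), so the shares at 0 d and 4 d lay under those of all transcripts. The 8 photosynthesis genes, summed on the linear scale, also ran lower in Lo5 at 1 d (0.279 to 0.5 times the 75th percentile) than in T250 (0.949 to 1.92), as they did at 4 d (0.195 to 0.291 against 0.67 to 0.923). The 5 zein and oleosin genes summed to between 0.307 and 0.745 in Lo5 and between 0.631 and 1.38 in T250 at 1 d, and at 4 d to between 0.217 and 0.853 against 0.866 and 1.51. The 4 root genes summed to between 27.5 and 35.9 in Lo5 and between 8.78 and 15.7 in T250 at 4 d. The part of these genes in the differences was not tested.

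At 4 d the lines were also apart in CHS, higher in Lo5 by 2.11 ± 0.83 (SE, limma's adjusted p = 0.0902), and in CHI, lower in Lo5 by a log2 ratio of −1.24 ± 0.50 (SE, adjusted p = 0.10). CHS was called without the array that stood apart (limma's adjusted p = 0.0459), and with normexp its ratio turned to −0.37 ± 0.73 (adjusted p = 0.726). CHI was called with the marked spots kept (−1.29 ± 0.37, limma's adjusted p = 0.0218) and without T250 0 d replicate 2 (adjusted p = 0.022). WHP1 at 0 d was higher in Lo5 by 2.93 ± 1.00 (SE, limma's adjusted p = 0.0669), and was called without the array that stood apart (adjusted p = 0.0441) or without T250 0 d replicate 3 (3.82, adjusted p = 0.0277). It was also called with the replicate block (3.20, adjusted p = 0.0344) and the slide as a random block (2.95, adjusted p = 0.0493), and not with the slide as a fixed block (adjusted p = 0.0964). F3H was lower in Lo5 on each day, with log2 ratios of −1.90 ± 1.27, −2.60 ± 1.27 and −1.63 ± 1.27 at 0, 1 and 4 d (SE, limma's adjusted p = 0.381, 0.272 and 0.406).

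A1, the reductase that precedes A2, had the widest spread of the 10 between replicates. In T250 it gave −5.77, 3.52 and −0.13 at 0 d, −5.93, 4.03 and 3.59 at 1 d and −8.20, −7.24 and 3.56 at 4 d. The 4 T250 spots below −5 were not well above background, and the 4 spots of replicates 2 and 3 at 0 d and 1 d were marked, so that the fit used 1 T250 spot at each of these days. In Lo5 it lay between −3.75 and 0.59 at 0 d, between −5.37 and −1.27 at 1 d and between −2.02 and −0.93 at 4 d. The pooled SD within groups, over all spots, was 5.66 in T250 and 1.85 in Lo5, where the median over all transcripts fitted was 0.47 and 0.51. No ratio of A1 between the lines is given at 0 d and 1 d, where with the marked spots kept the fitted value took the opposite sign. At 4 d the ratio was 2.48 ± 3.21 (SE, limma's adjusted p = 0.651), and without T250 4 d replicate 3, which leaves only spots not well above background in T250, A1 was at least 30.7-fold higher in Lo5 (adjusted p = 0.0255).

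The replicates differed together. The pooled SD within groups was 1.69 for A2, 1.35 for BZ1 and 2.10 for BZ2, higher than that of 95.3%, 91.3% and 97.7% of the transcripts fitted, while those of CHI (0.46) and CHI1 (0.39) lay below the median of 0.53. Over the 18 arrays, all spots kept, the levels of A2, BZ1 and BZ2 had pairwise correlations of 0.86 to 0.96, and with each group's mean removed of 0.84 to 0.94. Within the 9 T250 arrays the correlations were 0.96 to 0.99 and within the 9 Lo5 arrays 0.61 to 0.93. F3H and A1 had a correlation of 0.95 within T250 and of −0.89 within Lo5, where F3H was low. The 25 pairs of a chalcone synthase or isomerase with a later enzyme had correlations from −0.31 to 0.49, with a median of −0.11. Within the 9 Lo5 arrays CHS, C2, WHP1 and CHI1 had pairwise correlations of 0.68 to 0.91, and CHI with each of them −0.89 to −0.64, where in T250 the same pairs had −0.54 to 0.53 and −0.81 to −0.02. The Lo5 values include the array that stood apart, which had the lowest Lo5 levels of CHS, WHP1 and CHI1. The T250 values include the C2 spot not well above background. Correlations without these were not computed, so a difference between the lines cannot be read from them. All these values describe arrays that share lines, slides and growth runs.

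**Figure D4:**
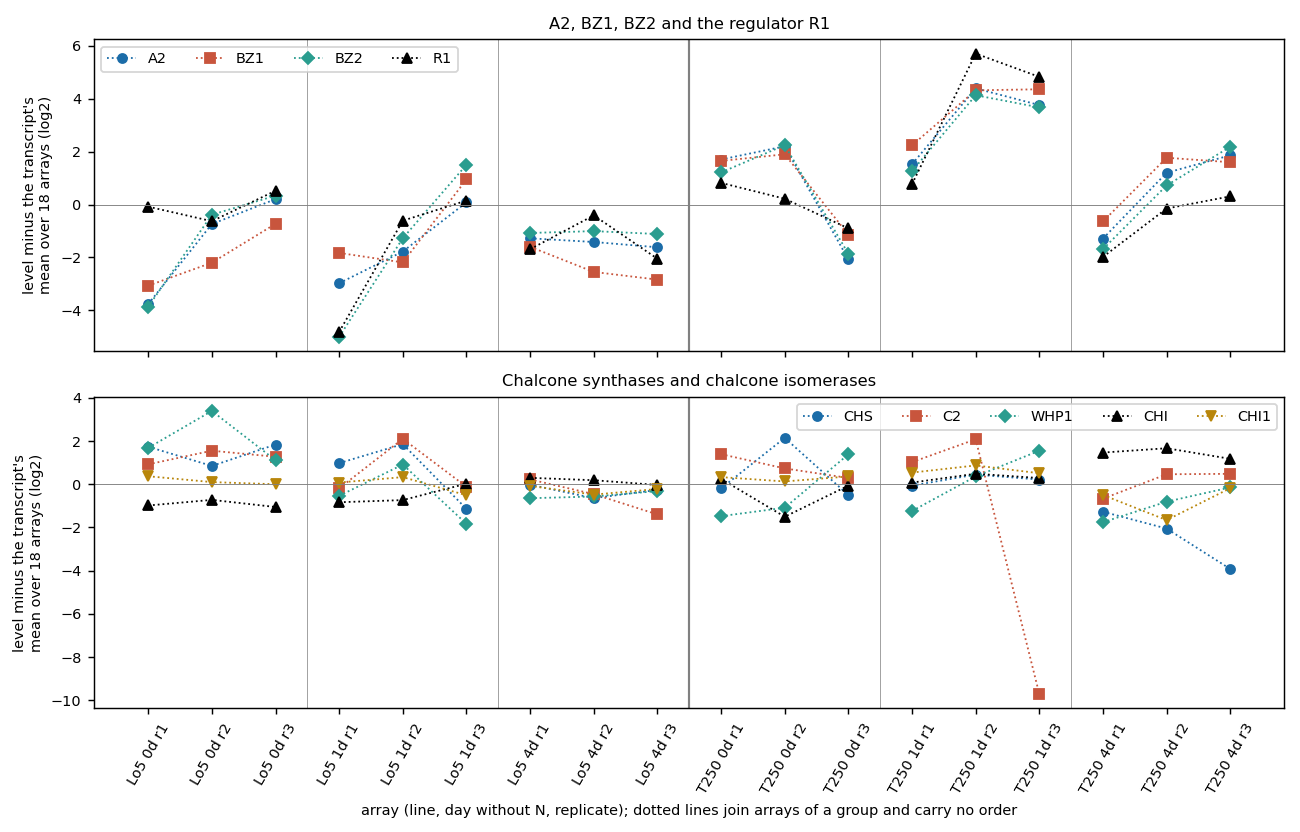
Level of each transcript on each array minus its own mean over the 18 arrays (vertical axis, log2) for A2, BZ1, BZ2 and the regulator R1 (top) and for the chalcone synthases and isomerases (bottom), by array along the horizontal axis. A2, BZ1 and BZ2 are high or low together on most arrays, highest on T250 1 d replicates 2 and 3. In the bottom panel CHI lies opposite to the other 4 on most Lo5 arrays.

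The same 2 arrays, T250 1 d replicates 2 and 3, were the highest for R1 (GRMZM5G822829_T01), the bHLH regulator of the anthocyanin steps. Its levels in T250 were 0.27, −0.33 and −1.45 at 0 d, 0.22, 5.16 and 4.28 at 1 d and −2.53, −0.70 and −0.24 at 4 d. In Lo5 they were −0.63, −1.18 and −0.03 at 0 d, −5.37, −1.16 and −0.40 at 1 d and −2.24, −0.96 and −2.60 at 4 d. The lines did not overlap at 1 d, where the log2 ratio of Lo5 to T250 was −5.53 ± 1.28 (SE, n = 3 and 3, limma's adjusted p = 0.0277) and, without Lo5 1 d replicate 3, −6.48 ± 1.36 (adjusted p = 0.00389). The call was lost without Lo5 1 d replicate 1 or 2 or T250 1 d replicate 2 or 3 (adjusted p = 0.11, 0.0573, 0.116 and 0.111), and with normexp (−3.57), limma on the groups compared only or the methods' t-test (adjusted p = 0.173, 0.387 and 0.59). The change of R1 in T250 from 0 d to 1 d was 3.73 ± 1.28 (SE, limma's adjusted p = 0.683). It was 5.61 ± 0.81 and called without the slide scanned apart, which holds replicate 1 (adjusted p = 0.0084). That setting was chosen after seeing the data, and it leaves out the replicate in which R1 lay at 0.27 at 0 d and 0.22 at 1 d. Over the 18 arrays R1 had correlations of 0.76 to 0.83 with A2, BZ1 and BZ2, and of 0.64 to 0.77 with group means removed. Within T250 these were 0.87 to 0.91 and within Lo5 0.24 to 0.68. With the chalcone synthases and isomerases its correlations were −0.29 to 0.40.

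Of the other regulators, those with a name in the annotation used (C1, PL1, PAC1 and P1) were not called in any comparison. Identifiers without a name are taken up below, and what they encode was not examined. C1 (GRMZM2G005066_T01) lay in T250 between −4.56 and −2.69 at 0 d, between −3.61 and −2.33 at 1 d and between −5.33 and −3.32 at 4 d, and in Lo5 between −5.23 and −3.10 over the 3 days. PL1 (GRMZM2G701063_T01), the MYB of the plant body, had log2 ratios of Lo5 to T250 between −0.41 and 0.22 on the 3 days (SE 0.49). The WD40 partner PAC1 (GRMZM2G058292_T01) varied least, with ratios to 0 d between −0.08 and 0.03 in both lines (SE 0.26). P1 (GRMZM2G084799_T01), the MYB of the phlobaphene branch, was higher in Lo5 than in T250 at 4 d by 1.02 ± 0.44 without overlap (SE, limma's adjusted p = 0.118).

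The wider pathway list held 31 further identifiers, of which 28 entered the fit and 24 have no name in the annotation used and are given by identifier only. In the 4 time comparisons 0 of its members were called, with 1, 1, 3 and 7 at an unadjusted p not above 0.05, and averaged over both lines 1 was, GRMZM2G167336_T01, lower at 4 d (log2 ratio −2.77 ± 0.55, SE, limma's adjusted p = 0.0318). The looser threshold was passed by GRMZM2G167336_T01 in Lo5 (−2.36) and in T250 (−3.17) at 4 d, and by GRMZM2G025832_T01 in T250 (−2.91, n = 2 and 1), all lower. Between the lines 2 were called at 0 d, both higher in Lo5, 2 at 1 d, both lower (R1 and GRMZM2G152801_T01, −2.03 ± 0.49), and 8 at 4 d, 5 of them higher in Lo5. The 3 counts are of 28, 27 and 28 members tested, beside backgrounds of 13.8%, 4.24% and 20%. The transcript farthest apart was GRMZM2G139874_T01, which was not well above background on any T250 array and was at least 1080-fold higher in Lo5 at 0 d and 1310-fold at 4 d, with mean levels of 3.64 and 3.78 in Lo5 against −8.02 and −8.43 in T250 (limma's adjusted p = 0.00828 and 0.00231). On Lo5 1 d replicate 3 it lay at −8.64, not well above background. GRMZM2G167336_T01 was higher in Lo5 by 4.44 ± 0.78 at 0 d and 5.25 ± 0.78 at 4 d, and GRMZM2G172795_T01 by 3.48 ± 1.13 at 4 d (SE). Lower in Lo5 at 4 d were GRMZM2G099467_T01, which was not well above background there and at least 3.56-fold higher in T250 (limma's adjusted p = 0.00266), GRMZM2G010468_T01 (−2.54 ± 0.86) and the coumarate ligase 4CL (GRMZM2G075333_T01, −1.15 ± 0.32, adjusted p = 0.0207), which makes the thioester that chalcone synthase uses. The ammonia-lyase PAL1 (GRMZM2G074604_T01), the first step of the phenylpropanoid route, was called in none of them.

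Likeness of pattern was taken over the 24667 transcripts seen well above background on each of the 18 arrays, with all spots kept. The 3 most like CHS over the arrays were GRMZM2G435393_T01, GRMZM2G370928_T01 and GRMZM5G826979_T01 (r = 0.895, 0.893 and 0.885), and with the mean of each line removed they were GRMZM2G060999_T01, GRMZM5G826979_T01 and GRMZM2G424348_T01 (r = 0.927, 0.897 and 0.884). None of the other 9 enzymes was among them, and CHI was the 24657th of 24666 over the arrays, with r = −0.859. For BZ1, chosen for this after its values were seen, A2 was the 2nd of 24666 transcripts over the arrays (r = 0.94) and the 1st with group means removed (r = 0.914), where BZ2 was the 11th (r = 0.844) and R1 the 637th (r = 0.645).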

How the data were processed

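Each of 18 root RNA samples was labelled with Cy3 and hybridized alone. The authors deposited the background-corrected spot intensity of Agilent Feature Extraction 10.5.1.1 (version from the submitters' processing notes), with marks for uneven, outlying and dim spots. Their deposited value table gives the same intensity, multiplied by a constant for each array. Here each array's 75th percentile was subtracted on the log2 scale, and marked spots did not enter the fit. The 31653 probes well above background throughout some group of 3 arrays were fitted with limma 3.58.1 in R 4.3.3, 6 groups in 1 fit, with two-sided p-values adjusted by Benjamini-Hochberg over all probes tested in a comparison. Calls needed an adjusted p not above 0.05 and a 2-fold difference, except differences of the lines, for which the adjusted p alone was used. The publication's methods name a t-test with p not above 0.01 and the same size, the looser threshold of the text. On simulated data for T250 4 d against 0 d, with 31625 transcripts, limma recovered 76 of the 200 that had been shifted by 2 on the log2 scale, with 6 false calls. The simulated noise was independent between arrays and held no slide or replicate effects. Precision was set by 3 arrays in each group.

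All 10 enzymes, the regulators with a name in the annotation and, in each comparison, up to 3 called pathway transcripts in each direction were named. The members, lists and tests were chosen with earlier results of these data known. Names were matched by synonym to the RefSeq table of Zm-B73-REFERENCE-NAM-5.0, which holds 9 of the 10, and its positions were not used, since the array was designed on another release. Where a group was not well above background, a fold was taken against, on each array, whichever was higher, the dim signal itself or the least signal counted well above background. Deviations from the group means of same-numbered arrays had correlations of 0.158 to 0.434 between 0 d and 1 d of a line, where the arrays also share a slide. In the other comparisons these correlations ran from −0.238 to 0.413, highest between T250 0 d and 4 d for replicate 3, where the arrays were on different slides. The main fit did not use the replicate numbers, which entered only the replicate block, and a fit paired within each line was not run. The alternatives were marked spots kept, no filter, probes well above background on all arrays, quantile normalization, normexp with an offset of 50 on the median signals, the authors' values, a floor for dim signals, a replicate block, the slide as a random block, limma on the groups compared only, the methods' t-test, and each array left out. The slide as a fixed block, the slide scanned apart left out, and marked spots kept without Lo5 1 d replicate 3 or with the replicate block were chosen after seeing the data.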

Additional observations from a re-analysis of the deposited data

Results flagged for a closer look

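For the coumarate ligase 4CL (GRMZM2G075333_T01) every Lo5 array at 4 d lay below the Lo5 mean at 0 d and every T250 array at 4 d above the T250 mean at 0 d. The change in Lo5 minus that in T250 was −0.89, and in limma's fit of the 6 groups this difference had an SE of 0.46 and an adjusted p of 1.00 (unadjusted p = 0.0711).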

How the results depend on the processing

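Over 100 values of the enzymes and 33 settings, 0 of the 3230 alternative values reversed a call. Of these, 2992 kept their side of the threshold and direction, 154 uncalled values changed sign, 51 calls were lost and 33 were gained, and the causes were not tested. In the comparisons with time in each line and in the differences of the lines, 0 enzymes were called in every setting run, except in T250 at 4 d, where 1 was with marked spots kept, also without Lo5 1 d replicate 3. Averaged over both lines, marked spots kept gave 1 enzyme at 4 d, probes well above background on all arrays 1, the slide as a random block 1, marked spots kept without Lo5 1 d replicate 3 gave 2, marked spots kept with the replicate block 2, and leaving out single arrays 0 to 2. Between the lines at 0 d the count of 0 became 1 with quantile normalization, the floor, the replicate block, the slide as a fixed block or marked spots kept without Lo5 1 d replicate 3, and 2 with the slide as a random block, and single arrays left out gave 0 to 2. The count of 3 at 1 d became 2 with marked spots kept (BZ2 lost), alone or with the replicate block, 2 with probes well above background on all arrays (A2 lost, adjusted p = 0.0515), 1 without a filter and 0 with normexp, limma on the groups compared only, the methods' t-test or the slide scanned apart left out, and 0 to 3 with single arrays left out. The count of 1 at 4 d became 2 with marked spots kept, alone or with the replicate block, and with limma on the groups compared only, 3 with marked spots kept without Lo5 1 d replicate 3, and 0 with normexp or the methods' t-test, and single arrays left out gave 0 to 2.

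The replicate block kept all 4 calls between the lines (adjusted p = 0.0387 for BZ1, 0.0402 for BZ2 and 0.043 for A2 at 1 d, 0.0462 for BZ1 at 4 d). Over all transcripts the calls between the lines ran from 678 to 5849 at 0 d (4156 as reported), from 3 to 5565 at 1 d (1293) and from 2264 to 7468 at 4 d (6195), lowest with normexp and highest with marked spots kept without Lo5 1 d replicate 3. They ran from 0 to 44 in Lo5 1 d (3), 0 to 58 in Lo5 4 d (14), 0 to 317 in T250 1 d (3), 0 to 547 in T250 4 d (52) and 19 to 666 averaged over both lines (308), and the differences of the lines gave 0 to 160 calls for 1 d (5) and up to 82 for 4 d (0). The 5 dim spots, all in C2 and A1, limit those enzymes. With 1 array of a group left, that array was assumed to vary as the others do.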
